A study of Homo sapiens with 4 samples.

Results

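The human MORC genes and the antisense gene of MORC2 were followed in HEK293T cells with and without an edit in MORC2. The 5 genes were MORC1, MORC2, MORC3, MORC4 and MORC2-AS1, taken by their Entrez identifiers 27136, 22880, 23515, 79710 and 150291 from the 28775 genes of the count table. HEK293T is a transformed line from human embryonic kidney. The MORC2 KO group held 2 samples and the WT group 2 samples. Cas9 protein with a guide RNA had been electroporated into the cells of the KO group, gRNA 1 for KO replicate 1 and gRNA 2 for KO replicate 2, and no other allele or agent is given for either group. Both KO samples were bulk cultures and not clones, so cut and uncut alleles may stand side by side in each. Polyadenylated RNA was sequenced as pairs of 65-base reads, and a value here is the number of read pairs that the authors assigned to a gene. In such bulk samples, fewer cells with a transcript and less transcript per cell cannot be told apart.

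MORC proteins share an ATPase module of the GHKL type, named after gyrase, Hsp90, histidine kinases and MutL, that closes into a dimer when ATP binds. A CW-type zinc finger and coiled coils follow the ATPase, and most family members act on chromatin. MORC2 is known for silencing together with the HUSH complex and for roles at DNA damage, MORC3 resides in PML nuclear bodies, MORC1 is a germline gene that silences transposons, and MORC4 is the least studied of the family. The comparison asked how far MORC2 RNA fell in the edited cells, whether the antisense gene can be measured apart from it, and whether MORC1, MORC3 or MORC4 was higher where MORC2 was lower.

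The guides target coding sequence near the start of the MORC2 protein. Both guides end in exon 7 of the 27 exons of transcript MORC2-201 (GENCODE 29, GRCh38, chr22:30946341-30946449, minus strand), with 15 bases of gRNA 1 and 16 bases of gRNA 2 inside the exon and the other 5 and 4 bases in front of it. The exon is shown because the guides of both KO samples were aimed at it. It is written in the direction of the transcript, with capitals for the 19 bases that hold the guide matches and their PAM motifs (TGG for gRNA 1 and GGG for gRNA 2).
MORC2 exon 7: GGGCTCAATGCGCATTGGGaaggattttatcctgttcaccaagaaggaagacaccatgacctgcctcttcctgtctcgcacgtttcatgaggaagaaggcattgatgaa
Before this exon the transcript has 131 coding bases of 2910, and the exon opens within codon 44 of a protein of 970 residues in that transcript. The paper numbers its residues on a longer MORC2 protein, so codon 44 here need not be residue 44 there. In the RefSeq exons used for counting, exon 7 is also 109 bases long and starts 22321 bases downstream of the MORC2 start. Counting was over all exons of a gene, so RNA from an edited allele that was transcribed and stable was counted in full.

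On T2T-CHM13v2.0, MORC2 spans chr22:31388696-31432332 on the minus strand, with 27 exons of 6517 bases in all. MORC2-AS1 is a long non-coding RNA gene at chr22:31385874-31390214 on the plus strand, with 2 exons of 208 and 1920 bases. The genes face each other tail to tail, and their exons share chr22:31388696-31390214. These 1519 shared bases make up 23.3% of the exonic length of MORC2 and 71.4% of that of MORC2-AS1. They all lie in the last MORC2 exon, 1736 bases long, of which they take 87.5%, and the other 26 exons of MORC2 share none. The 609 bases that belong to MORC2-AS1 alone lie beyond the annotated 3′ end of MORC2, with 0 of them in MORC2 introns. MORC1 (chr3:111678481-111838414, minus strand, 28 exons, 3747 exonic bases), MORC3 (chr21:34702785-34759216, plus strand, 18 exons, 4310 bases) and MORC4 (chrX:105377254-105436736, minus strand, 17 exons, 3798 bases) share 0 exonic bases with another gene.

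The overlap sets what can be counted. The authors' counting ignored the strand and assigned a read pair to 1 gene at most. A pair that lies wholly over the 1519 shared bases is in neither gene's count, whereas a pair with 1 read there and the other read in exonic bases of 1 gene alone can be assigned to that gene. Each pair counted for MORC2 therefore reaches into its other 4998 exonic bases. The level per kb is understated with the full length as the divisor and overstated with the own length, whereas the ratio between KO and WT uses the same bases in every sample.

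The libraries were of similar depth, with 53970043 to 64312514 read pairs on genes. After the filter on low counts 16675 genes were tested with edgeR's quasi-likelihood F-test, and at an adjusted p of 0.05 (Benjamini-Hochberg) 98 were higher in MORC2 KO (0.588%) and 5 were lower (0.03%), together 0.618%. The KO replicates differed more from each other than the WT replicates did, with a median absolute difference of 0.120 against 0.0758 in log2 CPM, where CPM is the TMM-scaled count relative to library size. The labelled cell line was checked on its markers: the neurofilament genes NEFL and NEFM and the RNA-binding gene LIN28B had at least 319 counts in each sample, and PAX2, a gene of the developing kidney, had 69 to 106. Of the leukocyte, fibroblast, endothelial and hepatocyte markers, PTPRC, CD3E, DCN and CDH5 had at most 2 counts in any sample, PECAM1 at most 5, ALB at most 14 and CD79A at most 26. COL1A1 had 194 to 238 counts. The methods call the WT replicates independent without saying what sets them apart, so p-values cover the spread between these samples.

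Of the 5 genes, MORC2, MORC3 and MORC4 passed the filter, MORC2-AS1 had too few counts and MORC1 had none. MORC2 was called lower, and 0 were called higher by edgeR or DESeq2, with 0 higher also at an unadjusted p under 0.05. The call on MORC2 makes 1 of 3 tested, where the table as a whole had 0.618% called.

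MORC2 RNA was reduced but far from absent in the edited cells. Its count was 3064 in KO replicate 1 and 3637 in KO replicate 2, against 5131 in WT replicate 1 and 4669 in WT replicate 2. In CPM these were 51.2 and 55.0 in KO and 86.2 and 87.7 in WT, so the groups lay far apart and both KO samples were low. KO replicate 1, made with gRNA 1, kept 58.9% of the WT mean, and KO replicate 2, made with gRNA 2, kept 63.3%. The mean fell from 87.0 ± 1.06 CPM (SD, n = 2) in WT to 53.1 ± 2.69 (SD, n = 2) in KO. The log2 fold change was -0.71 (standard error 0.06, 95% interval -0.84 to -0.58), with an adjusted p of 1.37e-04 from edgeR's quasi-likelihood test. By p-value MORC2 ranked 5 among all tested genes. By the size of the fall alone, whether or not a gene was called, it ranked 98. How much of the remaining RNA carried an edit, and how much protein it gave, was not measured in these counts. The paper assessed the efficiency of the knockout separately, by western blot for MORC2 protein.

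MORC3, whose protein organises in PML bodies, was nearly level between the genotypes. Its counts were 3564 and 3856 in KO and 3450 and 2932 in WT, or 59.6 and 58.4 against 58.0 and 55.1 CPM. Both KO samples lay just above both WT samples, as happened in one direction or the other for 47.5% of all tested genes. The log2 fold change was 0.06 (standard error 0.06, 95% interval -0.07 to 0.19), with an adjusted p of 0.653 in edgeR. In percent of the WT level, this interval is -4.50% to 13.9%.

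MORC4 lay slightly on the other side. Its counts were 4983 and 5389 in KO and 5083 and 4703 in WT, or 83.3 and 81.6 against 85.4 and 88.4 CPM. Both KO samples lay just under both WT samples, and 47.5% of all tested genes likewise had groups without overlap. The log2 fold change was -0.08 (standard error 0.06, 95% interval -0.20 to 0.05), with an adjusted p of 0.555 in edgeR. In percent of the WT level, it is -12.9% to 3.35%.

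MORC1, the germline member, had 0 counts in all 4 samples. A count of 0 allows up to 3 read pairs, about the one-sided 95% Poisson limit, which is 0.0454 to 0.0564 CPM depending on the sample, or 0.0121 to 0.0150 CPM per kb. This limit covers counting error only. Of the 13 genes within 500 kb of it, 8 had no count in any sample and 3 were tested, with 0 called by edgeR or DESeq2 and 0 at an unadjusted p under 0.05. CIP2A, among these 3, had 3751 to 4107 counts.

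**Figure D1:**
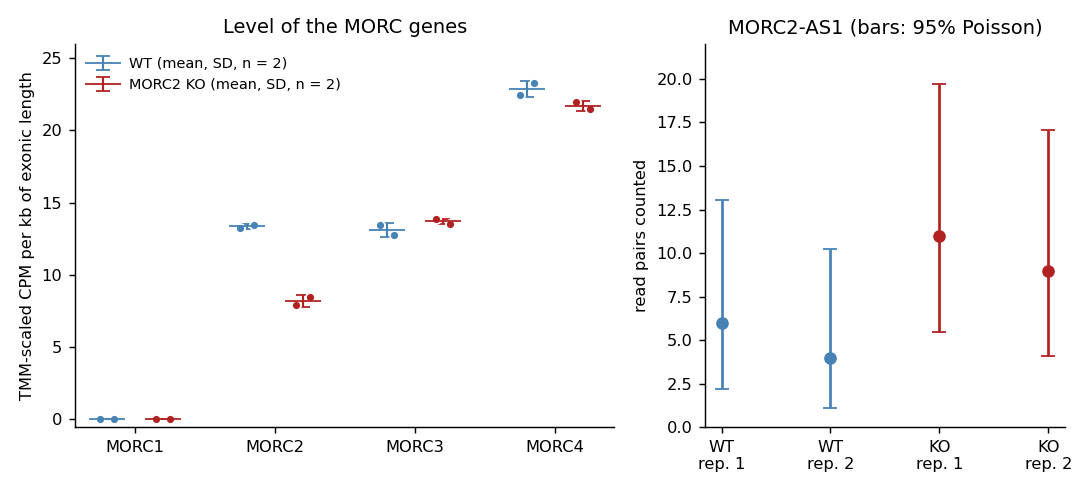
Level of each MORC gene in TMM-scaled CPM per kb of exonic length (left; points are samples, bars the mean and SD of 2 samples) and read pairs counted for MORC2-AS1 in each sample (right; bars are exact 95% Poisson intervals). The MORC2 KO samples of MORC2 lie well under its WT samples, MORC3 and MORC4 differ little, and the MORC2-AS1 intervals of all 4 samples overlap.

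**Figure D2:**
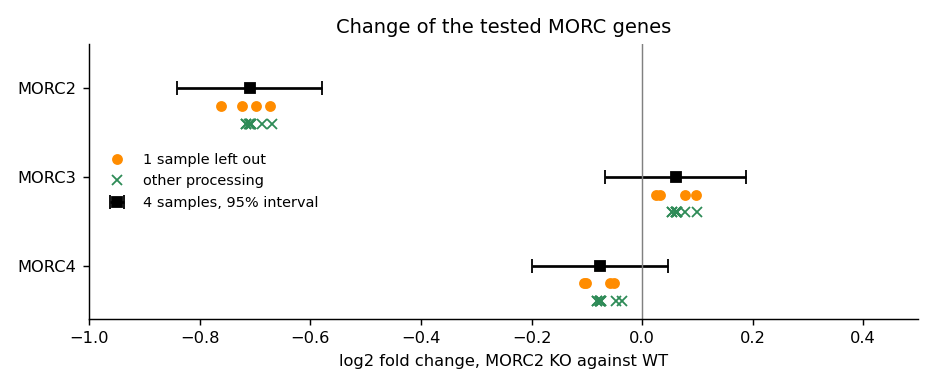
Log2 fold change, MORC2 KO against WT, of the tested MORC genes with its 95% interval (squares), with 1 sample left out (circles) and under other scalings, filters, models and tools (crosses). MORC2 stays between -0.76 and -0.67, whereas the intervals of MORC3 and MORC4 span 0.

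Per kb of exonic length, MORC4 was the most abundant of the 4 family members. In WT it stood at 22.9 ± 0.547 CPM per kb (SD, n = 2), MORC2 at 13.3 ± 0.162 and MORC3 at 13.1 ± 0.474, and MORC1 was at 0. The WT samples of MORC2 and MORC3 overlapped on this scale, so these neighbours in the order did not differ beyond their spread. With only its own bases as the divisor, the WT level of MORC2 was 17.4 ± 0.211 CPM per own kb, above MORC3 and still under MORC4, so its place beside MORC3 depended on the divisor. In KO the order was MORC4 at 21.7 ± 0.331, MORC3 at 13.7 ± 0.204 and MORC2 at 8.15 ± 0.413 CPM per kb, or 10.6 ± 0.538 CPM per own kb for MORC2, so it was under MORC3 with either divisor.

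No rise in the other family members matched the fall in MORC2. The level of MORC2 fell by 5.19 CPM per kb, while the mean of MORC3 was 0.569 higher and that of MORC4 1.17 lower on the same scale. The upper ends of the 95% intervals correspond to gains of 1.83 CPM per kb for MORC3 and 0.767 for MORC4, both smaller than that fall. Summed over MORC1, MORC3 and MORC4, the level was 35.8 and 35.0 CPM per kb in KO and 35.9 and 36.0 in WT, a ratio of 0.983 between the means 35.4 ± 0.535 and 36.0 ± 0.0731 (SD, n = 2). With 2 samples against 2, an exact two-sided permutation test cannot go below p = 0.3333, and it gave this value for the sum and for each ratio below. The total of all 4 genes went from 49.3 ± 0.235 to 43.5 ± 0.122 CPM per kb, and the share of MORC2 in it from 26.9% and 27.2% in WT to 18.0% and 19.4% in KO.

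Ratios of counts within a sample do not depend on scaling. MORC2 had 1.49 and 1.59 read pairs for each read pair of MORC3 in WT, and 0.860 and 0.943 in KO. Against MORC4 the ratio was 1.01 and 0.993 in WT and 0.615 and 0.675 in KO. Both ratios fell in both KO samples without overlap. The fitted log2 fold change of MORC2 lay 0.77 under that of MORC3 and 0.63 under that of MORC4, and the ratio within samples gave log2 differences of the same size, at -0.77 and -0.64. MORC3 against MORC4 was 0.679 and 0.623 in WT and 0.7152 and 0.7155 in KO.

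MORC2-AS1 was at the edge of detection. It had 11 and 9 read pairs in KO and 6 and 4 in WT, which are pairs that reach into its own bases. The counts of both KO samples were above those of both WT samples, but the exact 95% Poisson intervals, 5.49 to 19.7 and 4.12 to 17.1 in KO and 2.20 to 13.1 and 1.09 to 10.2 in WT, overlapped. Summed per genotype, 20 against 10 read pairs gave a ratio of 1.79 after division by depth, with an exact counting interval of 0.800 to 4.29 that holds 1. With no filter on low counts, edgeR estimated 0.83 ± 0.76 (standard error) on the log2 scale, at an adjusted p of 0.732. A difference was thus not detectable at this depth. Per own kb, MORC2-AS1 stood at 0.263 CPM in KO and 0.144 in WT, which was 2.95% and 2.03% of the MORC2 level of the same sample in KO and 0.960% and 0.703% in WT. This percentage carries the fall in MORC2 in its divisor. Since the own bases follow the 3′ end of MORC2 and strand was not kept, antisense transcripts and MORC2 transcripts that run past their annotated end cannot be told apart in this count.

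The wider families and partners of the MORC proteins were read from 4 lists with 34 genes, of which 32 were tested, 1 was called higher and 0 lower, where 0.588% of all tested genes were called higher. At an unadjusted p under 0.05 there were 5, the called gene included, and 14.3% of all tested genes had such a p. The median log2 fold change over all tested genes was 0.0054.

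Among 16 GHKL relatives, which are the other genes with this ATPase fold, 15 were tested and 0 were called by edgeR or DESeq2, with a median log2 fold change of -0.04 and 6 above 0. SMCHD1, a chromatin ATPase of X inactivation that is close to the MORC family in architecture, had 4423 and 5343 counts in KO and 4592 and 3861 in WT. Its log2 fold change was 0.05 (95% interval -0.09 to 0.19, adjusted p = 0.757 in edgeR), and it ran from -0.02 to 0.10 over the processing alternatives. The heat shock ATPases HSP90AA1, HSP90AB1, HSP90B1 and TRAP1, the topoisomerases TOP2A and TOP2B and the mismatch repair genes MLH3, PMS1 and PMS2 were likewise not called. PDK1, a kinase of pyruvate dehydrogenase, had the only unadjusted p under 0.05 in this list (log2 fold change 0.14, adjusted p = 0.318 in edgeR).

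Of the other genes with a CW-type zinc finger, a fold that in several proteins binds histone H3, ZCWPW1, ZCWPW2 and KDM1B were tested and 0 were called by edgeR or DESeq2. ZCWPW1, a histone reader of meiosis, had 234 and 271 counts in KO and 200 and 159 in WT. Its log2 fold change of 0.33 had an unadjusted p under 0.05, the 1 such gene here, and an adjusted p of 0.318 in edgeR.

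Of 8 partners of MORC2, all tested, TASOR was called higher and 0 were called lower, with 3 above 0 and a median of -0.07 over the list. TASOR, the scaffold subunit of HUSH, went from 133.5 and 126.4 CPM in WT to 211.3 and 236.0 in KO. This was 0.78 on the log2 scale (adjusted p = 1.37e-04 in edgeR), and it was called in all 15 fits, those without 1 sample included. The other HUSH subunits MPHOSPH8 and PPHLN1 were at -0.09 and -0.05, and the corepressor TRIM28 was at -0.09. The H3K9 methyltransferase SETDB1 was at 0.14 (adjusted p = 0.307) and its cofactor ATF7IP at 0.10. PAK1, the kinase of the MORC2 C-terminal domain, was at -0.09 and PARP1, which modifies MORC2 after DNA damage, at -0.13, neither of them called.

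The 7 partners and targets of MORC3 gave 6 tested genes and 0 calls in edgeR and DESeq2, with a median of -0.07. PML, which builds the bodies that MORC3 joins, was at 0.14 (95% interval -0.01 to 0.30). SUMO2, one of the modifiers that MORC3 binds, was at -0.15 with an unadjusted p under 0.05 and an adjusted p of 0.308 in edgeR. IFNB1, an interferon gene that MORC3 represses, had 5 and 2 counts in KO and 6 and 4 in WT and was not tested. The counts of called list genes depended on KO replicate 1. Without it, 6 of the 32 were called in edgeR (18.8%), where 20.5% of all tested genes were. Beside TASOR these were SETDB1 higher at 0.15 and HSP90AB1, SUMO2, PARP1 and TRIM28 lower at -0.24, -0.23, -0.16 and -0.15.

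**Figure D3:**
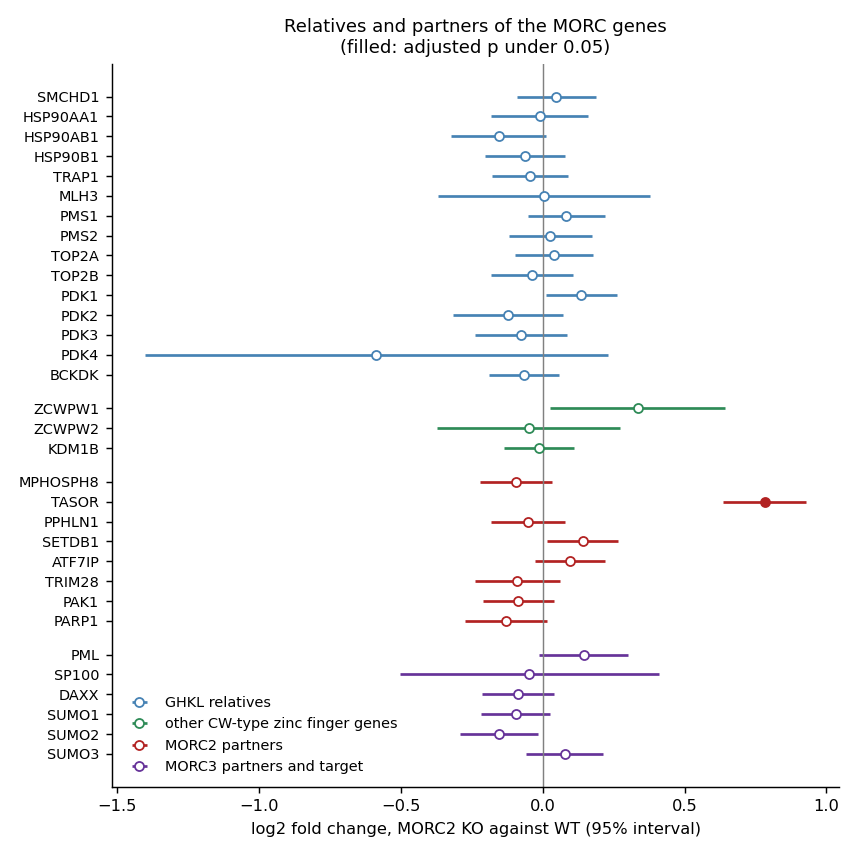
Log2 fold change, MORC2 KO against WT, with its 95% interval for the 32 tested genes of the 4 lists, coloured by list. TASOR is the 1 filled point, which marks an adjusted p under 0.05, and lies at 0.78.

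The genes around MORC2 were listed to see whether the locus moved as a whole. TUG1, a long non-coding RNA gene on the opposite strand, starts 491 bases upstream of the MORC2 start. It had 13570 and 17188 counts in KO and 13757 and 11459 in WT, so the counts of the groups overlapped. Its log2 fold change was 0.13 (95% interval -0.03 to 0.28, adjusted p = 0.445 in edgeR). On the other side, LOC107985544 lies 3352 bases beyond MORC2 and had 99 and 175 counts in KO and 97 and 69 in WT. Its log2 fold change was 0.56 (95% interval 0.03 to 1.08), with an unadjusted p of 0.0384 and an adjusted p of 0.325 in edgeR. SMTN and OSBP2, also within 100 kb, were at 0.08 and 0.03. Of 29 genes within 500 kb of MORC2, 21 were tested and 0 were called by edgeR (smallest adjusted p 0.222) or DESeq2, with 2 higher and 2 lower at an unadjusted p under 0.05, where 8.14% of all tested genes were higher and 6.17% lower by this measure. Within 2000 kb, 0 of 62 tested genes were called by either tool, with 3 higher and 11 lower at an unadjusted p under 0.05. Beside the same 8.14% and 6.17% of all tested genes, lower genes were thus more frequent here and higher genes less so. Of the 62 genes, 25 had a log2 fold change above 0, and the median was -0.04. Whether this wider region moved together was not tested. Without KO replicate 1, edgeR made calls near MORC2 in both directions, and also more calls over the whole table. That fit leaves 1 KO sample, so its calls are not read as a result about the locus. With the replicate numbers crossed as a block, a fit chosen after seeing the data, edgeR called 1 higher and 3 lower of 21 genes within 500 kb. Within 2000 kb that fit called 1 higher and 8 lower of 62, where 10.3% of all tested genes were called. Without the filter on low counts edgeR called 0 higher and 1 lower of 25 genes within 500 kb, where 2.84% of all tested genes were called.

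**Figure D4:**
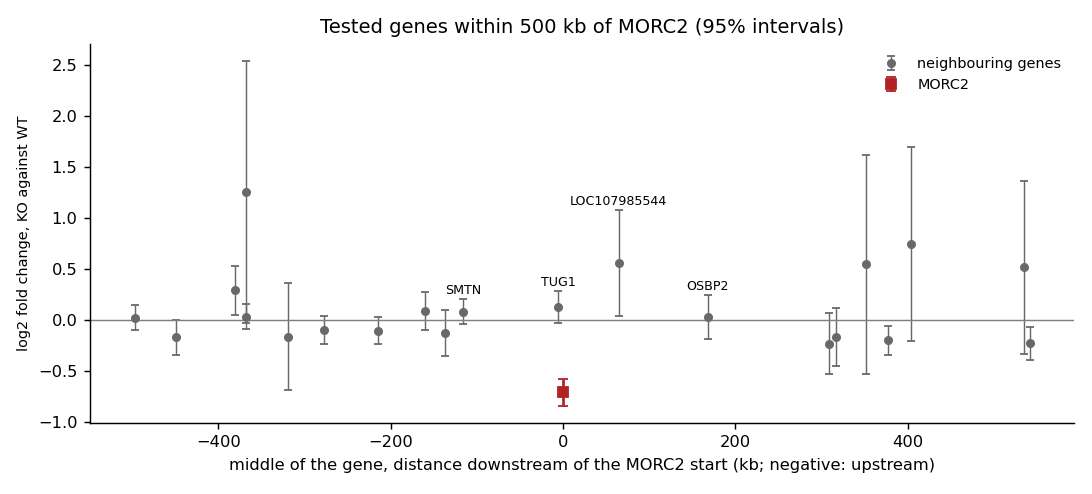
Log2 fold change, MORC2 KO against WT, with its 95% interval for the 21 tested genes within 500 kb of MORC2, against the distance of the middle of each gene from the MORC2 start in kb. MORC2 at -0.71 is the only called gene, and the wide intervals belong to genes with few counts.

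Around MORC3, DOP1B upstream and the chromatin assembly gene CHAF1B downstream were at -0.06 and -0.02 on the log2 scale. Of the 10 tested genes within 500 kb, 0 were called by edgeR or DESeq2. At an unadjusted p under 0.05, 2 of the 10 were higher, where 8.14% of all tested genes were higher by this measure. Beside MORC4, RBM41 was at 0.01, and the claudin gene CLDN2 had at most 9 counts in a sample. Within 500 kb of MORC4, 0 of 7 tested genes were called by edgeR or DESeq2 and 0 had an unadjusted p under 0.05. Without KO replicate 1, edgeR made calls near MORC3 and MORC1 and none near MORC4. That fit leaves 1 KO sample and also called more genes over the whole table. These calls are therefore not read as a difference between the neighbourhoods.

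The genes most like each member were found by the Euclidean distance between their log2 CPM in the 4 samples, each gene centred on its mean, among tested genes within 1 log2 unit of the mean level. For MORC2 they were CABLES1, NDUFAF8 and SLIRP at distances of 0.311, 0.394 and 0.404, where the median over 4754 genes was 0.699. Their log2 fold changes were -0.49, -0.40 and -0.38, so none fell as far as MORC2. Each of them was called lower as well (adjusted p 0.00559, 0.0363 and 0.0366 in edgeR). These genes were picked on the same 4 values, so a fall like that of MORC2 follows from the choice and is not separate evidence. For MORC3 they were SCCPDH, SYNRG and PTBP2 at 0.0102, 0.0110 and 0.0131 (4909 genes, median 0.145), and for MORC4 SPRING1, CLPB and DHX34 at 0.00643, 0.00812 and 0.00864 (4439 genes, median 0.112). Such a distance grows with the difference between the genotypes, so distances from MORC2 are not comparable with those from the nearly level MORC3 and MORC4. All these distances rest on 4 samples.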

How the data were processed

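RNA-seq counts of 4 HEK293T samples (2 MORC2 KO, 2 WT) were analysed, with groups from the sample labels. Reads had been placed on T2T-CHM13v2.0 by subread 2.0.6, and the authors deposited whole-number counts per gene from featureCounts 2.0.6 on strict RefSeq exons, without normalization. The command in the file counted multi-mapping reads, ignored strand and assigned no pair to more than 1 gene. 28763 of 28775 Entrez identifiers were matched to symbols with RefSeq (GRCh38.p14). Exon overlaps came from the count table, and exon 7 was matched to GENCODE 29 (GRCh38).

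Counts summed to 53970043 to 64312514 per sample, and with 2 samples per genotype the spread limits the tests. As in the methods, filterByExpr, TMM factors (0.986 to 1.03), quasi-likelihood F-tests on genotype and Benjamini-Hochberg adjustment at 0.05 were used, in edgeR 4.0.16 (R 4.3.3, older form, since the authors used 3.42.4). The biological coefficient of variation was 5.33%. Standard errors are the log2 fold change over the square root of F, and intervals use the t distribution. CPM is TMM-scaled. The code was tested on simulated counts.

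Alternatives were DESeq2 1.42.0, the newer edgeR form, robust dispersions, other scalings, offsets and filters, the replicate number, and leaving out each sample. The genes, lists (GHKL relatives, CW-type zinc finger genes, MORC2 partners, MORC3 partners, cell markers) and tests were chosen with earlier results of these data known. The rule named the 5 genes, called genes of the lists and neighbours, SMCHD1, adjacent genes, genes sharing exons and the 3 most alike genes. Other list genes, SMTN and OSBP2 were named after their values were seen. ATAC-seq and ChIP-seq of the study were not analysed here. The values of 1 listed gene are not reported here.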

Additional observations from a re-analysis of the deposited data

How the results depend on the processing

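The call or lack of one, and the direction, were the same for MORC2, MORC3 and MORC4 in 13 of 13 alternatives each, with log2 fold changes of -0.76 to -0.67, 0.02 to 0.10 and -0.10 to -0.04 (adjusted p 2.97e-23 to 2.91e-04, 0.422 to 1.00 and 0.190 to 1.00). Leaving out 1 sample gave -0.76 to -0.67, 0.02 to 0.10 and -0.10 to -0.05, and the 1 sample left in a genotype was then assumed to vary like the other genotype. The difference of MORC2 from MORC3 lay between -0.84 and -0.71 and that from MORC4 between -0.70 and -0.57. TASOR was called in all 15 fits. The number of called genes over the whole table moved more, and the cause was not tested. It was 463 higher and 182 lower without the filter (22728 genes), 16 lower in DESeq2, and 88 to 1397 higher and 9 to 2117 lower with 1 sample left out. Without KO replicate 1 it was 1397 and 2117, without KO replicate 2 142 and 30, without WT replicate 1 149 and 9, and without WT replicate 2 88 and 14. Among the list genes, 5 had an unadjusted p under 0.05 against 1 called. Per own kb, MORC2 stood at 17.4 in WT and 10.6 in KO and MORC2-AS1 at 0.144 and 0.263 CPM. The labels do not say whether samples with the same replicate number were handled together. Deviations of same-numbered samples had a correlation of -0.12 over genes, which does not settle this. With the replicate block 237 genes were higher and 42 lower, and MORC2 was at -0.71. With the numbers crossed, a fit chosen after seeing the data, 903 were higher and 809 lower. Few read pairs limit MORC2-AS1, and none were counted for MORC1.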
